A study of Homo sapiens with 6 samples.

Results

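The 10 genes described here belong to the YAP/TEAD pathway, the nuclear end of Hippo signalling, and were taken as the rows of the deposited expression table for YAP1, WWTR1 (which encodes TAZ), TEAD1, TEAD4, LATS2, AMOTL2, ANKRD1, AXL, CCN1 (formerly CYR61) and CCN2 (formerly CTGF). All 10 of 10 symbols were found once among the 21429 genes of the table, and all 10 were among the 15327 genes tested. RNA sequencing was done on U251 cells, an established human glioma line, that stably carry a mutant amyloid precursor protein (APP, K670N/M671L). The conditions set against each other were siRPL13, in which the cells were electroporated with an siRNA against the ribosomal protein gene RPL13 (3 libraries), and siNC, in which they received a control siRNA (3 libraries). Both groups share the transgene, the addition of 1 µg/mL doxycycline at 24 h to induce it, and harvest at 72 h after transfection, and all libraries come from this cell line alone.

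In the Hippo pathway, a kinase cascade ending in LATS1 and LATS2 phosphorylates the coactivators YAP and TAZ and keeps them out of the nucleus. When the cascade is quiet, YAP and TAZ enter the nucleus and bind TEAD factors on DNA, and genes such as CCN1, CCN2 and ANKRD1 are transcribed. LATS2 and AMOTL2 are themselves targets and restrain YAP, so they act as feedback. In adherent cells the pathway responds to cell density, stretch and the actin cytoskeleton, and its activity is set largely at the protein level, which transcript levels do not show.

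TEAD factors recognise the DNA element GGAATG, read as CATTCC on the opposite strand, so the upstream sequences of target genes whose levels are compared below are shown with each match in capitals. Sequences are from RefSeq on GRCh38.p14, 5′ to 3′ on the strand of the gene, and cover the 250 bases before an annotated start. CCN2 and ANKRD1 are shown because they hold more than 1 match, AMOTL2 and AXL because their transcripts differed in the comparison without the library labelled siRPL13 replicate 3.
CCN2, chr6:131951373-131951622, minus strand: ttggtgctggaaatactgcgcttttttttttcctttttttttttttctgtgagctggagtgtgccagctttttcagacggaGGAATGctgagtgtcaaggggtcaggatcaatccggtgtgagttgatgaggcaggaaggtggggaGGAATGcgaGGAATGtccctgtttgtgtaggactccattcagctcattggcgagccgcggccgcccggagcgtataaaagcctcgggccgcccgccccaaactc
ANKRD1, chr10:90921088-90921337, minus strand: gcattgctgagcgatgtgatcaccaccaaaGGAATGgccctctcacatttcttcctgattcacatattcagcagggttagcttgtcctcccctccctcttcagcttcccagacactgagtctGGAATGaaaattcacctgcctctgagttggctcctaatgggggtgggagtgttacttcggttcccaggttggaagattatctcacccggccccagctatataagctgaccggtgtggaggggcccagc
AMOTL2, chr3:134374448-134374697, minus strand: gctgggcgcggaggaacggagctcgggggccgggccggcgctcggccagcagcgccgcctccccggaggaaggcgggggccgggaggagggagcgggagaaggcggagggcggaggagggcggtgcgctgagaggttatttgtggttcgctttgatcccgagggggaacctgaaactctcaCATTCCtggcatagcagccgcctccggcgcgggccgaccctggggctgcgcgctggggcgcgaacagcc
AXL, chr19:41226505-41226754, plus strand: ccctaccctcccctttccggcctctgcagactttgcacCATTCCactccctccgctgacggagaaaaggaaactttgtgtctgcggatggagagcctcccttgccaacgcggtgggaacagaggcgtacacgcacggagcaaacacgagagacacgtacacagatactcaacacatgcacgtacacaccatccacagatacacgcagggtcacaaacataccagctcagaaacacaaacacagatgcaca
The CCN2 window holds 3 matches, starting 169, 104 and 95 bases before the gene start. The ANKRD1 window holds 2, at 220 and 128 bases before the start used. This window overlaps the 5′ end of the ANKRD1 gene span (90912096 to 90921276), so the start used lies inside that span. The AMOTL2 and AXL windows shown hold 1 each on the opposite strand, 69 and 212 bases before the start used. They were shown because they hold a match, and they lie inside the genes, which span 134355874 to 134375479 (AMOTL2) and 41219203 to 41261766 (AXL). RefSeq lists a further start for each of AMOTL2 and AXL. The windows there (134375418 to 134375667 and 41218973 to 41219222) reach the outer 5′ end of those spans and hold none. Of the 10 genes, 7 had an entry among the promoter sequences, with 10 windows of 300 bases (250 before and 50 after the start). CCN1, TEAD1 and TEAD4 had no entry, so their upstream sequences were not searched. Of the 10 windows 6, from 6 of the 7 genes, held a match. Among all 35116 windows 4928 (14.0%) held a match and 45 (0.128%) held at least 3. YAP1 had 1 match, LATS2 had 1 just after its start, and WWTR1 had none in either of its windows. The 10 genes were chosen as pathway members and known targets, and the share over all windows is per window, not per gene. These counts are thus a description and no test. A match is a run of letters and does not show binding.

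Levels are regularized-log (rlog) values, which lie on the log2 scale, are scaled for library size and are pulled towards the mean of the gene. The depth per library is unknown. The siRNA target was read first in every library. RPL13 stood at 13.03, 13.12 and 14.09 in siRPL13 replicates 1 to 3, against 14.05, 14.16 and 14.18 in siNC replicates 1 to 3. The library labelled siRPL13 replicate 3 was thus within the siNC range for the target, and differences are given with it (6 libraries) and without it (5 libraries). "Rose" and "fell" mark genes that limma called in the 5-library comparison (adjusted p under 0.05), whose siRPL13 arm holds 2 libraries. Of 10 astroglial and glioma markers 8 had a mean rlog of at least 3, GFAP at 14.73 to 14.98 in siRPL13 and 14.98 to 15.50 in siNC, while CHI3L1 and OLIG2 lay below 3. Of 6 leukocyte markers 1 (CSF1R) reached that level, and PTPRC was not among the rows. Markers of other cell types were present in part: 3 of 4 endothelial (KDR at 11.80 to 12.06 in siRPL13 and 11.75 to 11.90 in siNC), 3 of 4 neuronal (MAP2 at 10.32 to 10.66 in siRPL13 and 10.38 to 10.60 in siNC), 3 of 5 fibroblast (COL1A2 at 15.38 to 15.76 in siRPL13 and 15.58 to 15.77 in siNC) and 2 of 4 epithelial markers reached 3.

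With all 6 libraries none of the 10 genes passed the test, and neither did any other gene: 0 of 15327 genes (0%) had an adjusted p under 0.05 by limma, 1275 had an unadjusted p under 0.05, and 2 of the 10, TEAD1 and AXL, were among those. Their 3 siRPL13 libraries lay above all 3 siNC libraries. That is 2 of 10 genes beside 6.92% of all genes tested for non-overlap in that direction, and 0 of 10 beside 6.90% in the other. Without the library labelled siRPL13 replicate 3, TEAD1 and AXL rose and AMOTL2 fell. This is 2 of 10 genes higher where 8.42% of all genes tested were higher, and 1 of 10 lower where 10.7% were lower. In those 5 libraries 3 of the 10 lay wholly above siNC (24.7% of all genes) and 4 wholly below it (26.6%). The median difference over the 10 genes was -0.03 with 6 libraries and -0.06 with 5, against -0.00 over all genes in both. In 5 of the 10 YAP/TEAD genes the library labelled siRPL13 replicate 3 lay above the siNC range, in 0 below it and in 5 within it. Over all genes tested that library lay above the siNC range in 29.4% and below it in 27.9%. For TEAD1 and AXL this was the direction of siRPL13 replicates 1 and 2, and for TEAD4 and AMOTL2 it was the opposite one. For ANKRD1 the other siRPL13 libraries lay within the siNC range.

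**Figure D1:**
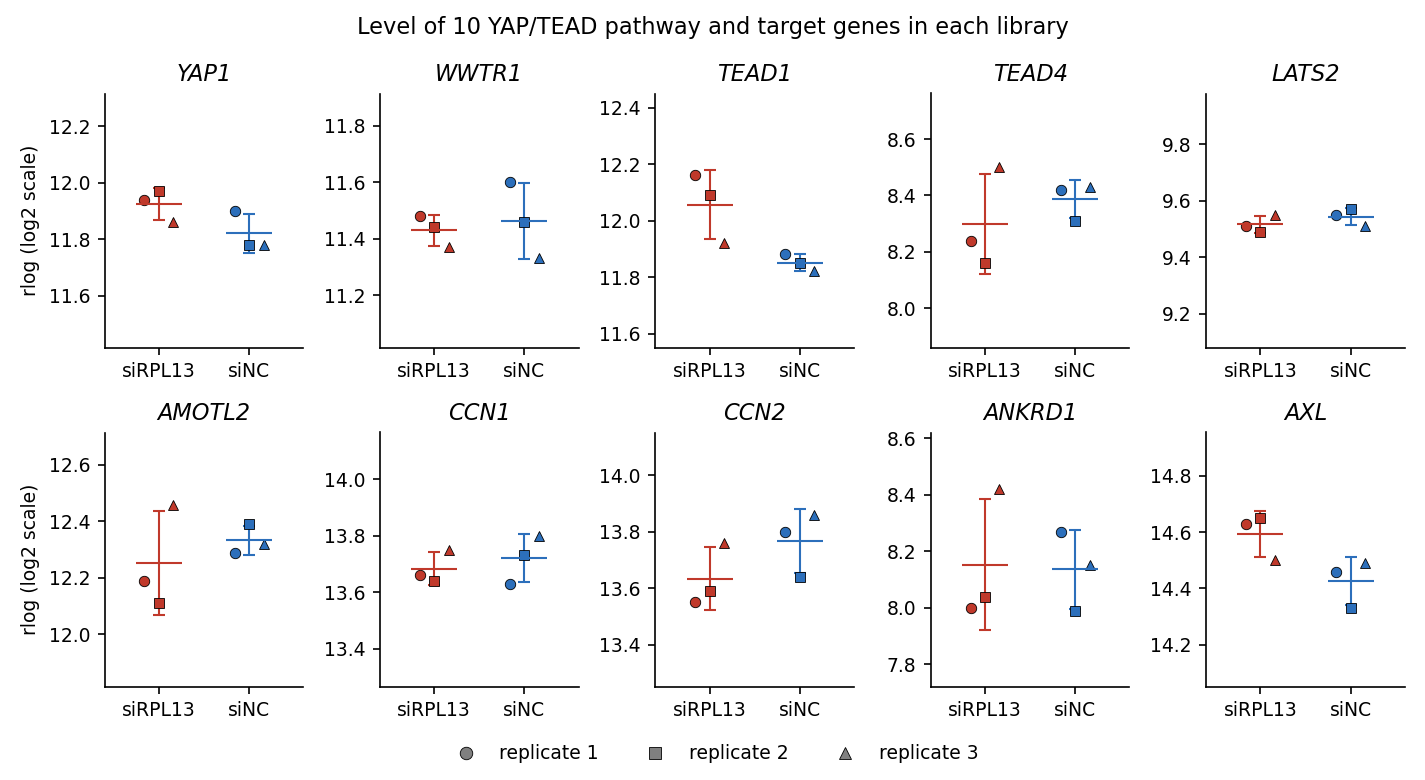
Level of each of the 10 genes as rlog values (vertical axes on the log2 scale, each spanning the same width and not starting at 0), with 1 point per library, siRPL13 in red and siNC in blue, shapes for the replicate numbers, and a line for the mean of 3 libraries with its SD. TEAD1 and AXL are the genes whose 3 red points all lie above the blue ones, and for TEAD4, AMOTL2 and ANKRD1 the red triangle of siRPL13 replicate 3 (8.50, 12.46 and 8.42) lies above every other point.

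Neither coactivator gene passed the test with 6 or with 5 libraries. YAP1 (ENSG00000137693, GRCh38 chromosome 11, 102110461 to 102233423, plus strand) stood at 11.94, 11.97 and 11.86 in siRPL13 replicates 1 to 3, against 11.90, 11.78 and 11.78 in siNC replicates 1 to 3. Its siRPL13 replicates 1 and 2 lay above all siNC libraries, and replicate 3 lay below siNC replicate 1. The difference was 0.10 ± 0.06 (SE, log2; adjusted p 0.623 by limma) with 6 libraries and 0.14 ± 0.05 (adjusted p 0.101) with 5, where the 95% interval ran from 0.02 to 0.26. YAP1 passed the threshold in the 5-library comparison under quantile scaling (adjusted p 0.0427), with library weights (0.0227) and without siNC replicate 1 (0.0144). WWTR1, the gene of the coactivator TAZ (ENSG00000018408, chromosome 3, 149517235 to 149736714, minus strand), stood at 11.48, 11.44 and 11.37 in siRPL13 replicates 1 to 3, against 11.60, 11.46 and 11.33 in siNC replicates 1 to 3. The groups overlapped fully, since the siNC libraries were spread more widely than the siRPL13 ones. The 6-library difference was -0.03 ± 0.08 (adjusted p 0.902 by limma), and with 5 libraries the 95% interval ran from -0.16 to 0.16, with a sign that changed under 5 of 12 alternative settings. The excess of YAP1 over WWTR1 was 0.46, 0.54 and 0.49 in siRPL13 and 0.30, 0.32 and 0.45 in siNC (difference of rlog levels, not per length). All 3 siRPL13 values lay above the siNC values, the lowest of them narrowly (0.46 against 0.45 in siNC replicate 3). This is a description for which no test was made, and no share over other gene pairs was taken.

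TEAD1 had the largest difference of the 10 genes in both comparisons. TEAD1, a DNA-binding partner of YAP and TAZ (ENSG00000187079, chromosome 11, 12674591 to 12944483, plus strand), stood at 12.16, 12.09 and 11.92 in siRPL13 replicates 1 to 3, against 11.88, 11.85 and 11.82 in siNC replicates 1 to 3. All siRPL13 libraries were higher than all siNC libraries, replicate 3 by the smallest margin. The difference was 0.21 ± 0.07 (SE, log2; adjusted p 0.589 by limma) with 6 libraries. TEAD1 rose by 0.28 ± 0.05 with 5 (adjusted p 0.0043, 1.21-fold, 95% interval 0.17 to 0.38), a call that was lost without siRPL13 replicate 1 (0.24, adjusted p 0.123). TEAD4, a paralog that binds the same element (ENSG00000197905, chromosome 12, 2959330 to 3040673, plus strand), stood at 8.24, 8.16 and 8.50 in siRPL13 replicates 1 to 3, against 8.42, 8.31 and 8.43 in siNC replicates 1 to 3. Its siRPL13 replicates 1 and 2 were the lowest libraries and replicate 3 was the highest. The difference of TEAD4 was -0.09 ± 0.10 with 6 libraries (adjusted p 0.775 by limma) and -0.19 ± 0.07 with 5 (adjusted p 0.101, 95% interval -0.35 to -0.02); it passed in the 5-library comparison with library weights (0.0435). The level of TEAD1 less that of TEAD4 was 3.91, 3.94 and 3.41 in siRPL13 replicates 1 to 3 and 3.45, 3.54 and 3.39 in siNC replicates 1 to 3, again without a test. siRPL13 replicate 3 lay within the siNC range on this measure.

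**Figure D2:**
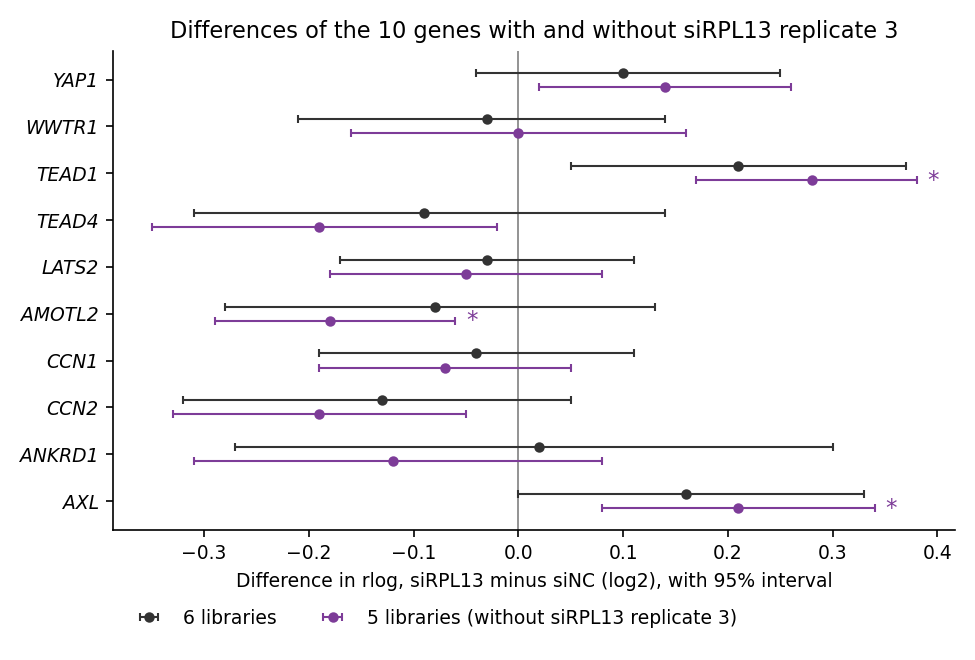
Difference in rlog between siRPL13 and siNC (horizontal axis, log2, siRPL13 minus siNC) for each of the 10 genes, with its 95% interval from limma, in black with 6 libraries and in purple with 5. Stars mark an adjusted p under 0.05: TEAD1 at 0.28, AXL at 0.21 and AMOTL2 at -0.18, all with 5 libraries, while no gene has one with 6.

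Of the feedback genes, AMOTL2 was lower in siRPL13 replicates 1 and 2 and LATS2 lay close to siNC. AMOTL2, an angiomotin that holds YAP at cell junctions (ENSG00000114019, chromosome 3, 134355874 to 134375479, minus strand), stood at 12.19, 12.11 and 12.46 in siRPL13 replicates 1 to 3, against 12.29, 12.39 and 12.32 in siNC replicates 1 to 3. The libraries with lowered RPL13 were below all siNC libraries, while siRPL13 replicate 3 was above them all. With 6 libraries the difference was -0.08 ± 0.09 (SE, log2; adjusted p 0.786 by limma). With 5 it fell by 0.18 ± 0.05 (adjusted p 0.0356, 0.883-fold), but it did not pass when siRPL13 replicate 1 was omitted (adjusted p 0.171) nor without siRPL13 replicate 2 (0.309), siNC replicate 2 (0.0696) or siNC replicate 3 (0.0684), and likewise with no filter on low values (0.0536), quantile scaling (0.0852) or no variance trend (0.0637). LATS2, a kinase that inactivates YAP and TAZ (ENSG00000150457, chromosome 13, 20973032 to 21061547, minus strand), stood at 9.51, 9.49 and 9.55 in siRPL13 replicates 1 to 3, against 9.55, 9.57 and 9.51 in siNC replicates 1 to 3. Its values over all 6 libraries spanned 9.49 to 9.57. The difference was -0.03 ± 0.06 with 6 libraries (adjusted p 0.881 by limma) and -0.05 ± 0.06 with 5 (adjusted p 0.613), where the 95% interval of -0.18 to 0.08 bounds what these libraries allow.

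The secreted targets CCN1 and CCN2, matricellular proteins that bind integrins and are the usual readouts of YAP activity, did not pass the test with 6 or with 5 libraries. CCN1 (ENSG00000142871, chromosome 1, 85580761 to 85583962, plus strand) stood at 13.66, 13.64 and 13.75 in siRPL13 replicates 1 to 3, against 13.63, 13.73 and 13.80 in siNC replicates 1 to 3. The groups overlapped, with the lowest and the highest value both in siNC. Its difference was -0.04 ± 0.07 (SE, log2; adjusted p 0.86 by limma) with 6 libraries and -0.07 ± 0.06 (adjusted p 0.416, 95% interval -0.19 to 0.05) with 5. CCN2, whose upstream window holds the 3 element matches shown above (ENSG00000118523, chromosome 6, 131948176 to 131951373, minus strand), stood at 13.55, 13.59 and 13.76 in siRPL13 replicates 1 to 3, against 13.80, 13.64 and 13.86 in siNC replicates 1 to 3. siRPL13 replicates 1 and 2 were the lowest libraries, and replicate 3 lay among the siNC ones. The difference was -0.13 ± 0.08 with 6 libraries (adjusted p 0.632 by limma) and -0.19 ± 0.06 with 5 (adjusted p 0.0588, 95% interval -0.33 to -0.05). In the 5-library comparison CCN2 passed the threshold with a robust trend (0.0469), with library weights (0.0102) and without siNC replicate 2 (0.00909).

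ANKRD1 and AXL, the remaining targets, differed from each other in level and in spread. ANKRD1, an ankyrin repeat protein of the nucleus and of muscle sarcomeres (ENSG00000148677, chromosome 10, 90912096 to 90921276, minus strand), stood at 8.00, 8.04 and 8.42 in siRPL13 replicates 1 to 3, against 8.27, 7.99 and 8.15 in siNC replicates 1 to 3. siRPL13 replicate 3 was the highest library and siNC replicate 2 the lowest, so the groups overlapped. The difference was 0.02 ± 0.12 (SE, log2; adjusted p 0.974 by limma) with 6 libraries and -0.12 ± 0.09 (adjusted p 0.377, 95% interval -0.31 to 0.08) with 5. AXL, a receptor tyrosine kinase for the ligand GAS6 (ENSG00000167601, chromosome 19, 41219203 to 41261766, plus strand), stood at 14.63, 14.65 and 14.50 in siRPL13 replicates 1 to 3, against 14.46, 14.33 and 14.49 in siNC replicates 1 to 3. All siRPL13 libraries were above all siNC libraries, replicate 3 by a narrow margin over siNC replicate 3. With 6 libraries the difference was 0.16 ± 0.07 (adjusted p 0.589 by limma). AXL rose by 0.21 ± 0.06 with 5 (adjusted p 0.0289, 1.16-fold), a call lost without siRPL13 replicate 1 (0.225) or siRPL13 replicate 2 (0.201).

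Reads of overlapping transcripts could bear on a few of these values, since no source used here says whether reads were assigned by strand. GENCODE 29 places an antisense transcript over exons of AXL, CCN2 and WWTR1, at mean rlog values of 3.65, 1.70 and 2.81, and a ribosomal pseudogene within AMOTL2 (RPL39P5, at 0.68). It also places an antisense transcript over YAP1 (AP000942.2), for which no value was read here. Their part in the results was not tested.

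Setting levels between genes needs a correction for length, so the log2 of the exon length in kilobases was subtracted from each rlog value. On that per-length scale the order of the 10 genes was CCN2, CCN1, AXL, AMOTL2, YAP1, TEAD1, WWTR1, TEAD4, ANKRD1 and LATS2, over ranges of 12.33 to 12.63 for CCN2 and 7.01 to 7.09 for LATS2. The ranges over the 6 libraries overlapped between CCN2 and CCN1, between TEAD1 and WWTR1, between TEAD4 and ANKRD1, and between ANKRD1 and LATS2, so those neighbours were not separated by more than their spread. YAP1 was above WWTR1, at 9.27 ± 0.06 against 8.36 ± 0.06 in siRPL13 and 9.17 ± 0.07 against 8.39 ± 0.13 in siNC (SD, n = 3). Among the 4 TEAD genes, TEAD1 stood at 8.69 ± 0.12 in siRPL13 and 8.49 ± 0.03 in siNC, and TEAD2 at 8.39 ± 0.15 in siRPL13 and 8.53 ± 0.03 in siNC. TEAD1 thus made up 40.9% of the summed per-length TEAD level in siRPL13 and 35.7% in siNC, and TEAD2 made up 33.2% in siRPL13 and 36.7% in siNC. TEAD4 held 13.7% in siRPL13 and 14.7% in siNC, and TEAD3 held 12.3% in siRPL13 and 12.9% in siNC. With siRPL13 replicates 1 and 2 alone, the siRPL13 share was 43.4% for TEAD1 and 31.8% for TEAD2. LATS1 and LATS2 had nearly equal per-length levels, 7.05 ± 0.05 and 7.04 ± 0.03 in siRPL13 and 6.96 ± 0.06 and 7.07 ± 0.03 in siNC. The exon length counts every annotated exon once, so a gene read mainly from short isoforms is understated.

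**Figure D3:**
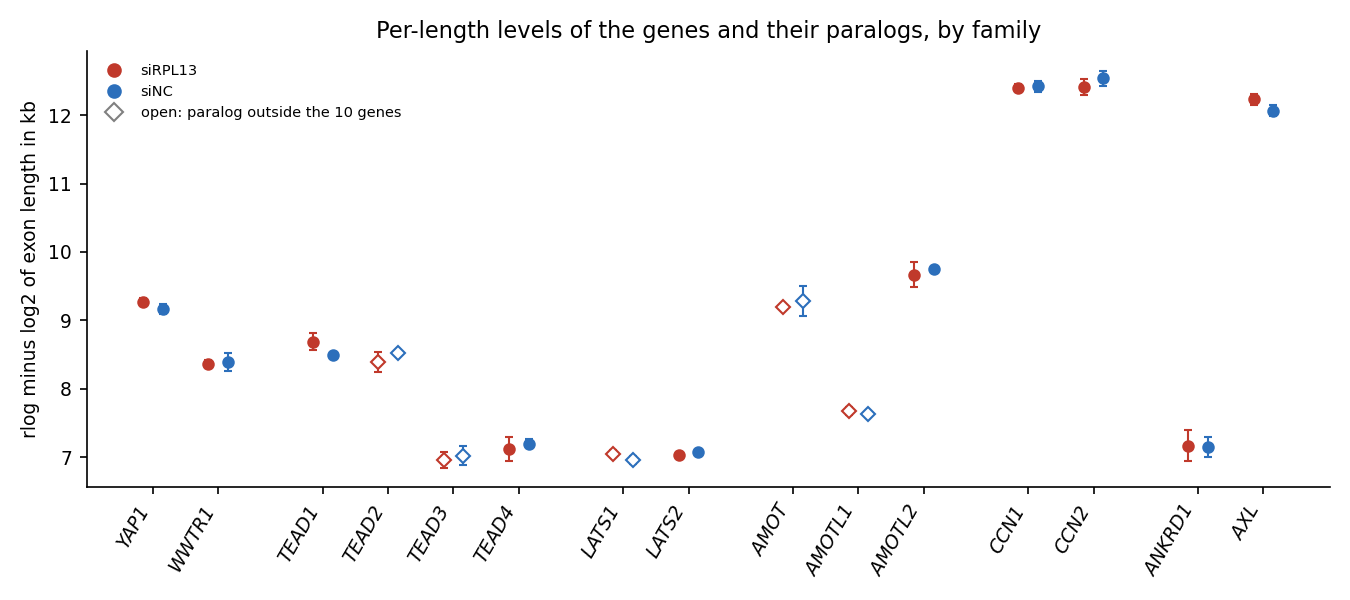
Per-length level (vertical axis, rlog minus log2 of the exon length in kb, not starting at 0) of the 10 genes and 5 paralogs, grouped by family, as the mean of 3 libraries with SD, siRPL13 in red to the left and siNC in blue to the right. CCN1, CCN2 and AXL stand near 12, and TEAD1 and TEAD2 stand above TEAD3 and TEAD4.

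Of the other Hippo pathway genes, those upstream of YAP included members that rose, and the cadherin FAT1 had the largest difference of them. Of 35 genes of the kinase cassette and its upstream regulators 34 were tested; in the 5-library comparison 8 rose beside 8.42% of all genes and 2 fell beside 10.7%, with a median difference of 0.04 against -0.00 over all genes. The count higher was 4 without siNC replicate 3 and 5 with no filter, where 936 and 1084 of all genes were higher, against 1291 as reported. The 2 lower ones ran from 0 to 3 over the alternatives. Without siRPL13 replicate 1 or siRPL13 replicate 2, which leaves 1 siRPL13 library, calls were fewer in this list and over all genes alike. With 6 libraries 0 passed and 3 of 34 had an unadjusted p under 0.05 by limma, beside 1275 of all 15327 genes tested. FAT1, an atypical cadherin, stood at 15.17, 14.95 and 13.94 in siRPL13 replicates 1 to 3, against 14.15, 14.03 and 14.15 in siNC replicates 1 to 3. Its siRPL13 replicates 1 and 2 lay far above siNC, and replicate 3 was the lowest library. FAT1 rose by 0.95 ± 0.07 (SE, log2; 0.58 ± 0.27 with 6 libraries), FAT4, a further member of that cadherin family, by 0.34 ± 0.08 (0.24 with 6), and DCHS1, the FAT4 ligand, by 0.27 ± 0.08 (0.24 with 6). FRMD6, a FERM-domain protein upstream of the kinases, stood at 10.58, 10.57 and 10.16 in siRPL13 replicates 1 to 3, against 10.07, 10.09 and 10.15 in siNC replicates 1 to 3, and rose by 0.47 ± 0.06 (adjusted p 7.15e-04 by limma; 0.33 ± 0.11 with 6 libraries). All 3 of its siRPL13 libraries lay above siNC, replicate 3 by a narrow margin. PTPN14, a phosphatase that binds YAP and is also listed among the targets, rose by 0.29 ± 0.07 (0.16 with 6). The other members that rose were WWC3, TAOK3 and SLMAP, and those that fell were MINK1, a kinase that can act on LATS (-0.18 ± 0.05; -0.07 with 6 libraries), and LIMD1, a LIM protein that binds LATS (-0.17 ± 0.06; -0.10 with 6). The core kinase genes STK3, STK4 and LATS1 had differences of -0.01, -0.08 and 0.12 and did not pass.

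Among the other TEAD factors and partners of YAP, TAZ or TEAD, 9 of 11 were tested, and 1 rose and 2 fell with 5 libraries (background 8.42% and 10.7%), with a median of -0.06 against -0.00 over all genes. TEAD2 fell, with values of 9.85, 9.92 and 10.13 in siRPL13 replicates 1 to 3, against 10.07, 10.12 and 10.11 in siNC replicates 1 to 3 (-0.21 ± 0.06, adjusted p 0.0255 by limma; -0.13 ± 0.08 with 6 libraries). TP73, a p53 family factor that can bind YAP, fell by 0.38 ± 0.06 (-0.20 with 6), and the transcription factor gene RUNX1 rose by 0.21 ± 0.05 (0.14 with 6). Without siRPL13 replicate 1, which leaves 1 siRPL13 library, these 3 calls were lost, and calls over all genes were fewer as well. The differences were then -0.18 for TEAD2, -0.36 for TP73 and 0.20 for RUNX1. With 6 libraries 0 of the 9 passed and 0 had an unadjusted p under 0.05 by limma, beside 1275 of all 15327 genes tested.

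A broader list of 22 further YAP and TAZ target genes did not move in a single direction. Of 20 tested, 4 rose (background 8.42%) and 2 fell (10.7%) with 5 libraries, with a median of 0.06 against -0.00 over all genes. With 6 libraries 0 passed and 2 of 20 had an unadjusted p under 0.05 by limma, beside 1275 of all 15327 genes tested. F3, which encodes tissue factor, stood at 9.72, 9.62 and 9.42 in siRPL13 replicates 1 to 3, against 9.07, 9.06 and 9.25 in siNC replicates 1 to 3, and rose by 0.54 ± 0.08 (SE, log2; 0.46 ± 0.09 with 6 libraries). Its siRPL13 libraries, replicate 3 included, all lay above siNC. RBMS3, an RNA-binding protein gene, rose by 0.37 ± 0.08 (0.23 with 6) and MYOF, which encodes the membrane-repair protein myoferlin, by 0.28 ± 0.06 (0.12 with 6). BIRC5, which encodes survivin and also acts in mitosis, fell by 0.44 ± 0.07 (-0.30 with 6), and GADD45A, a stress gene that is also a p53 target, fell by 0.22 ± 0.06 (-0.08 with 6). The count of these targets that were higher was 6 without siNC replicate 1, where 1734 of all genes were higher, against 1291 as reported. The count lower was 1 without siNC replicate 2, where 1355 of all genes were lower, against 1642. Without siRPL13 replicate 1 or siRPL13 replicate 2, which leaves 1 siRPL13 library, calls were fewer in this list and over all genes alike. THBS1 and CRIM1, which stood at 13.17 or above in every library, had differences of 0.13 and -0.04 and did not pass. Of the 18 related genes named by the fixed rule in these lists and in that of SRF targets, 14 were still called without siNC replicate 2. The number was also 14 without siNC replicate 3. Fewer of them stayed called without siRPL13 replicate 1 or siRPL13 replicate 2, where calls over all genes were fewer as well.

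**Figure D4:**
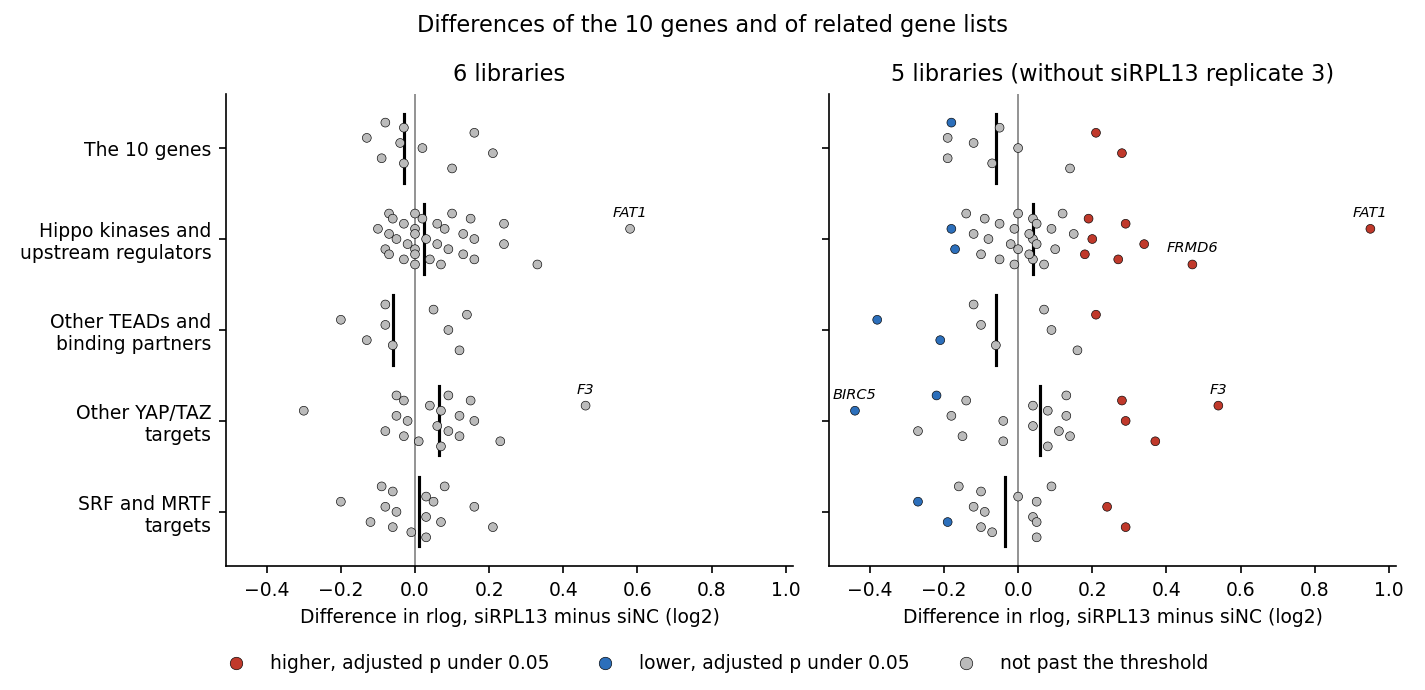
Difference in rlog (horizontal axes, log2, siRPL13 minus siNC) of the 10 genes and of the tested genes of 4 related lists, with 6 libraries on the left and 5 on the right; each point is a gene, spread vertically for clarity, and the black line is the median of the list. Red and blue points, with an adjusted p under 0.05, appear with 5 libraries alone, and FAT1 at 0.95 and F3 at 0.54 are the farthest to the right of their lists.

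The genes whose profiles over the 6 libraries were nearest to those of the classical targets were found by the root-mean-square distance between values centred on the mean of each gene, among the 12838 other genes whose mean rlog reached 5. For CCN1 they were CDC42SE1 and SPOP, at distances of 0.013 and 0.014 (log2). For CCN2 they were ICA1 and CTSK, at 0.024 each. For ANKRD1 they were CHST7 and SLC16A6, at 0.039 and 0.041. None of the 10 genes was eligible for this search. All these distances lie below the median SE of a difference over all genes with 6 libraries (0.074). A distance between profiles and the SE of a group difference are unlike quantities, so this does not measure how close the profiles are. Being the smallest among 12838 genes, the distances rank neighbours and do not show shared control, which was not tested.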

How the data were processed

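RNA of 6 libraries (3 siRPL13, 3 siNC) was sequenced from 1.5 µg of total RNA each. The deposited values are rlog values on the log2 scale, per the name of the deposited table, which the authors made per Ensembl gene. Per the submitters' processing notes, Trimmomatic 0.33, TopHat, HTSeq 0.6.1p1, DESeq2 and GRCh38.p7 were used, with roles and settings not given in the sources used here. Rlog values shrink low genes towards their mean, so their differences are understated, and depth cannot be read from them; they are not counts, and no count model was used.

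Current symbols were found for 20499 of 21429 identifiers, and positions and exon lengths for 20608 in GENCODE 29. Genes whose mean rlog reached 3 were tested with limma 3.58.1 in R 4.3.3 (eBayes with a trend, two-sided, Benjamini-Hochberg over all 15327 genes, threshold 0.05). Every adjusted p is from limma. Libraries are described as biological triplicates, with no word on how cultures were kept apart, so p-values reflect library-to-library spread that may be technical. The 10 genes and the lists were chosen with earlier results of these data known, as was the comparison without the library labelled siRPL13 replicate 3. List genes were named by rule: up to 4 called with 5 libraries in each direction with the largest differences. DCHS1, WWC3, TAOK3, SLMAP, STK3, STK4, LATS1, THBS1 and CRIM1 were added after their values were seen.

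On simulated data with 200 changed genes among 15327, changes of 0.25, 0.5 and 1 (log2) were recovered in 29.9%, 79.1% and 98.5% of genes with 6 libraries, with 5 false calls, and in 14.9%, 77.6% and 98.5% with 5 libraries, with 3. These shares rest on the spread of siNC and are not the power of the real 6-library comparison. Alternatives were other filters, scalings, variance models, library weights, a replicate block and leaving out each library. At the full decimals deposited, no pair of libraries shared an identical value among the genes tested (0). Figures were drawn with matplotlib 3.10.9.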

Additional observations from a re-analysis of the deposited data

How the results depend on the processing

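With 6 libraries, 0 of the 10 genes were higher and 0 lower under every alternative run except library weights (3 higher and 3 lower, with 2601 and 2708 genes over all) and leaving out the library labelled siRPL13 replicate 3. Over the leave-one-outs, genes higher ran from 0 to 1291 and lower from 0 to 1642, and of the 10 genes 0 to 2 were higher and 0 to 1 lower. The weight of the library labelled siRPL13 replicate 3 was 0.163, against 0.992 and 7.19 for the other siRPL13 libraries; the estimation of the 6-library weights did not reach its convergence tolerance, so these weights and counts are uncertain, while that of the 5-library weights did. Signs turned for differences near 0 that never passed: CCN1 to 0.01 with quantile scaling and 0.00 without siNC replicate 3, WWTR1 to 0.03 with library weights and 0.04 without siNC replicate 1, and ANKRD1 to -0.09 with library weights, -0.12 without siRPL13 replicate 3 and -0.06 without siNC replicate 2. Their leave-one-out differences ran from -0.08 to 0.00 for CCN1, from -0.10 to 0.04 for WWTR1 and from -0.12 to 0.09 for ANKRD1.

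With 5 libraries, 1291 genes were higher and 1642 lower. Library weights gave 2007 higher, and leave-one-outs gave 102 to 1734 higher and 141 to 2014 lower, the lowest without siRPL13 replicate 1 (102 and 141) and then siRPL13 replicate 2 (383 and 560). The count of the 10 genes lower, 1 as reported, was 0 with no filter, quantile scaling or no trend. It was 2 with a robust trend and 3 with library weights, and 0 to 1 over the leave-one-outs. The count higher, 2 as reported, was 3 with quantile scaling, with library weights or without siNC replicate 1. It was smaller without siRPL13 replicate 1 or siRPL13 replicate 2, which leaves 1 siRPL13 library. WWTR1 turned to 0.04 with quantile scaling, 0.01 with median centring, 0.05 with library weights, 0.02 without siRPL13 replicate 2 and 0.07 without siNC replicate 1 (leave-one-out range -0.07 to 0.07), and CCN1 to 0.00 with quantile scaling. TEAD1 and AXL kept their direction in all settings run, TEAD1 between 0.24 and 0.31 and AXL between 0.16 and 0.24. Where a leave-one-out left 1 siRPL13 library, it was assumed to vary like the siNC libraries. The cause of these changes was not tested.

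Deviations of same-numbered libraries from their group means had correlations across genes of 0.084, -0.428 and -0.328 for numbers 1 to 3. Against siNC replicate 1 the values were 0.084, 0.159 and -0.132 for siRPL13 replicates 1 to 3. The contrast of siRPL13 replicate 3 with replicates 1 and 2 shows in all these correlations, so they cannot decide whether the numbers pair libraries. The main comparisons use the groups only. With the replicate block the 6-library comparison gave 0 genes higher and 0 lower, and TEAD1 had a difference of 0.21 ± 0.07 (adjusted p 0.723 by limma). No depth is known, so no limit set by depth can be given.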

Other observations

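Targets of SRF and its MRTF coactivators, which respond to actin and share several genes with YAP, showed no common direction. Of 17 genes 16 were tested. With 5 libraries 2 rose (background 8.42%) and 2 fell (10.7%), with a median difference of -0.03 against -0.00 over all genes. With 6 libraries 0 passed and 2 of 16 had an unadjusted p under 0.05 by limma, beside 1275 of all 15327 genes tested. CALD1, the actin-binding protein caldesmon, rose by 0.29 ± 0.05 (SE, log2; 0.16 with 6 libraries) and TPM4, a tropomyosin, by 0.24 ± 0.05 (0.21 with 6). TPM4 stood at 14.68, 14.68 and 14.58 in siRPL13 replicates 1 to 3, against 14.40, 14.44 and 14.49 in siNC replicates 1 to 3, so that the groups did not overlap with all 6 libraries. VCL, the focal adhesion protein vinculin, fell by 0.27 ± 0.06 (-0.20 with 6). It stood at 13.30, 13.35 and 13.52 in siRPL13 replicates 1 to 3, against 13.69, 13.53 and 13.55 in siNC replicates 1 to 3, all siRPL13 libraries below all siNC libraries. CNN2, a calponin, fell by 0.19 ± 0.05 (-0.09 with 6). The count lower was 3 with no filter, where 1402 of all genes were lower. It was 1 with quantile scaling, no trend or without siNC replicate 2, where 1409, 1463 and 1355 of all genes were lower. Without siRPL13 replicate 1, which leaves 1 siRPL13 library, the calls in both directions were lost, and calls over all genes were fewer as well.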
